A study of Mus musculus with 6 samples.

Results

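The 9 genes described here encode parts of the T cell receptor complex and the proteins that act next to it in T lymphocytes. They were taken by symbol and are Cd3d, Cd3e, Cd3g, Cd247, Lck, Zap70, Lat, Cd2 and Ptprc. All 9 had a row in the table of 17866 protein-coding genes. The table came from 6 bulk RNA-seq libraries of the separated corneal epithelium of C57BL/6 mice that were 6 months old. By genotype 3 libraries were WT and 3 were Rela-/- (KO below), and the study made the mutant by crossing Krt14-Cre to floxed Rela. Rela encodes the p65 subunit of NF-κB, and Krt14 drives Cre in the basal cells of stratified epithelia. In the study's lineage tracing, Cre driven by Krt14 marked corneal epithelium and limbus and also conjunctiva, meibomian gland, skin, oral mucosa and trachea, so the driver was not limited to the cornea. The sources used here give neither the sex of the mice nor whether the WT mice carried a floxed allele.

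T lymphocytes recognise peptide held by MHC molecules through the T cell receptor. The receptor chains cannot signal alone, and signals pass through CD3 gamma, delta, epsilon and zeta, which are encoded by Cd3g, Cd3d, Cd3e and Cd247. The kinase Lck phosphorylates these tails, ZAP-70 (Zap70) docks on them, and ZAP-70 then phosphorylates the membrane adaptor LAT. CD2 is an adhesion receptor of T cells and natural killer cells. CD45, the product of Ptprc, is a phosphatase that keeps Lck ready to act, and it is carried by all leukocytes and not by T cells alone.

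The 3 CD3 genes that are named for the complex lie side by side on chromosome 9. The stretches before their start sites are shown as a description, chosen after these neighbours were all seen to be higher in KO. For Cd3e that result was less firm, as given below. Whether these stretches bear on the levels was not tested. The sequences are from RefSeq, build GRCm38.p6, on the gene's own strand, and end where the first exon of the deposited gene begins. Cd3g is read from the minus strand and Cd3d from the plus strand, with 1355 bases between their start sites, and the Cd3e start site (minus strand) lies 27825 bases from that of Cd3d. Capitals mark GGAAG on either strand, the core letters bound by ETS factors.

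Cd3g, chr9:44980432-44980681, minus strand: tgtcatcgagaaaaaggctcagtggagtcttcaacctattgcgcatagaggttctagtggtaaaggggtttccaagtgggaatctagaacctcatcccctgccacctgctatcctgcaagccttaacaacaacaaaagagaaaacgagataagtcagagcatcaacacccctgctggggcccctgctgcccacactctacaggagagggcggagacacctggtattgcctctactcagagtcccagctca
Cd3d, chr9:44981536-44981768, plus strand: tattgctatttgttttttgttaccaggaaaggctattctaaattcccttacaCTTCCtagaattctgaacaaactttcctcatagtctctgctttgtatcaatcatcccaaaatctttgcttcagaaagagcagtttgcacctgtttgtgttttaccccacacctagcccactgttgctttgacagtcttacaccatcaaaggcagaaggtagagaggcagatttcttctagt
Cd3e, chr9:45009665-45009861, minus strand: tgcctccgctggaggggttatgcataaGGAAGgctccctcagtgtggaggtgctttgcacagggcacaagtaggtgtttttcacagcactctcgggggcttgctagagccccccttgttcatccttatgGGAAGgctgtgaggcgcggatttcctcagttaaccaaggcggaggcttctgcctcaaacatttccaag

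Start sites of 8 of the 9 genes were in the RefSeq table, with 12 windows of 250 bases in all, and Cd2 was not. GGAAG was present on either strand in 10 of the 12 windows and in 64.1% of all 32851 windows of that length. By gene it was present in 7 of the 8. The 12 windows are not separate units, since some genes had more than 1 and those of Ptprc share bases. TGTGGT, the core of RUNX sites, was present in 2 of the 12 windows against 14% of all windows, in Lck and Zap70. TATAAA was present in 1 of the 12, for Ptprc, against 12.4%. The NF-κB consensus was present in 0 of the 12 and in 3.90% of all windows. A match is only a match of letters.

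The libraries were alike in depth, with totals between 20158404 and 20880347 estimated counts. Rela was lower in KO, with 223 to 318 counts against 1844 to 1871 in WT (log2 fold change -2.60, adjusted p = 2.74e-06, edgeR quasi-likelihood test). The corneal keratin Krt12 was the most abundant gene of the epithelial list in WT and was present in every library. Krt12 was lower in KO, with 109690 to 161317 counts against 755776 to 811469 in WT (log2 fold change -2.36, adjusted p = 1.29e-05, edgeR). The members had few counts, 123 at most in any library. Together they reached 248, 183 and 300.0 counts in KO against 46.0, 40.8 and 53.7 in WT. At this depth 3 counts, taken as the floor, were equal to 0.137 to 0.152 CPM, the count per 1000000 after scaling for library size and composition.

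The T lymphocyte genes were higher in KO when summed. They came to 12.2 ± 2.91 CPM in KO and to 2.18 ± 0.327 CPM in WT (SD, n = 3 each), a ratio of 5.60, and the groups did not overlap. In 8 of the 9 genes every KO library lay above every WT library in CPM, which was also so for 31.6% of the 17827 genes with at least 1 count. In bulk samples, more cells of a type and more RNA per cell cannot be told apart. Genes were first tested after a filter on low counts, which 5 of the 9 passed. Of these 5, Cd3d, Cd3g, Lck and Ptprc were higher at an adjusted p of 0.05 or less and none was lower. Across all 13305 genes that passed, 31.8% were higher and 30.2% lower. Because the filter passes genes through the group where they are high, all 9 were also read from a fit without it. There 7 of 9 were higher and 0 lower (also 0 lower at an unadjusted p under 0.05 and by DESeq2). Of all 17827 genes 25.9% were higher and 23.0% lower. No member had a WT mean of 50 counts or more, and a gene near 0 in WT has little room to fall. The 0 lower therefore tells little and is not comparable with the 23.0%. Of all genes below that WT mean, 27.5% were higher in that fit. The median log2 fold change of the 9 in that fit was 2.88, or 2.74 with Cd2 set at its lower bound, and that of all genes was 0.07. All p-values below are adjusted over every gene tested.

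**Figure D1:**
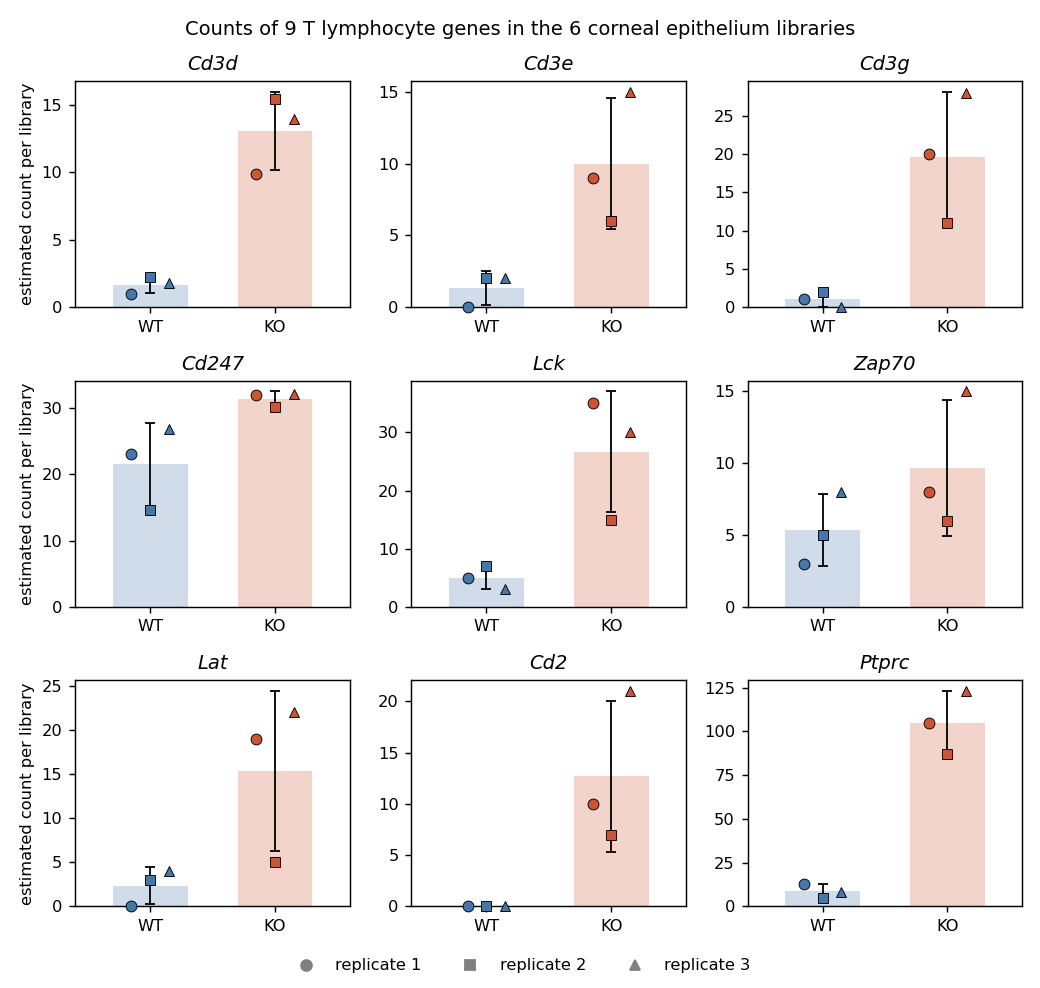
Estimated counts (y axis, linear, from 0) of each of the 9 genes in the 3 WT and 3 KO libraries, with bars for the mean and error bars for the SD. The groups overlap for Zap70 and in no other gene, and the y axes differ, with Ptprc reaching 123 counts and Cd3d 15.5.

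The CD3 chains are taken first. Cd3g (gene 12502, GRCm38 chromosome 9, 44969572 to 44980431), the gamma chain, had 20, 11 and 28 counts in KO against 1, 2 and 0 in WT. All WT libraries were at or below the floor and all KO libraries above it. KO exceeded WT by 4.24 on the log2 scale (SE 0.697; edgeR, adjusted p = 9.07e-04). From the summed counts, 59 against 3, the ratio was 21.2 with a 95% counting interval of 6.91 to 106 (exact, conditional on the total). Cd3d (gene 12500, chromosome 9, 44981769 to 44987052), the delta chain, had 9.87, 15.5 and 13.9 counts in KO against 1, 2.22 and 1.81 in WT. KO exceeded WT by 2.98 on the log2 scale (SE 0.480; edgeR, adjusted p = 8.19e-04). The KO libraries were closer together for Cd3d than for Cd3g.

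Cd3e (gene 12501, chromosome 9, 44998735 to 45009664), the epsilon chain, had 9, 6 and 15 counts in KO against 0, 2 and 2 in WT. The groups did not overlap, but the gene was removed by the filter. In the fit without it, KO exceeded WT by 2.88 on the log2 scale (SE 0.768; edgeR, adjusted p = 0.0135), and the adjusted p was 0.0573 when KO replicate 3 was left out. The deposited table places Cd3e on the plus strand, whereas GENCODE M21 has it on the minus strand with an antisense gene, Gm48719, inside it. The strand column differed from GENCODE for 2549 of 17164 genes matched by symbol. Whether the counting used strand is not given in the sources used here, so sense and antisense reads of Cd3e cannot be told apart. Summed over Cd3d, Cd3e and Cd3g the libraries had 38.9, 32.5 and 56.9 counts in KO against 2, 6.22 and 3.81 in WT, a ratio of 11.5 in mean CPM.

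Cd247 encodes the zeta chain. It had 32.1, 30.1 and 32.1 counts in KO against 23.0, 14.6 and 26.8 in WT. Every KO library was above every WT library in CPM, but in FPKM the WT library with the highest value (0.94) exceeded the lowest KO library (0.85). The log2 fold change of 0.64 (SE 0.290) did not pass the test (adjusted p = 0.0869, edgeR). Cd247 made up 45.9% of the members' counts in WT and 12.9% in KO. Without Cd247 the other 8 genes had 216, 152 and 268 counts in KO against 23.0, 26.2 and 26.8 in WT, a ratio of 9.01.

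The row for Cd247 (gene 12503, chromosome 1, 165779942 to 165871153) covered 12 transcripts and began 8739 bases before the GENCODE gene. Its last 6000 bases overlapped Pou2f1, a widely expressed transcription factor gene on the other strand, which had 629 to 717 counts in WT and 501 to 551 in KO. Counts of Cd247 and Cd3d were not whole numbers, as the authors' estimate gives where reads are shared between features, while those of the other 7 members were whole to within 0.005. The Cd247 row also overlapped other annotated genes. Among them were Gm16565, a processed transcript on the same strand (8293 bases), and the rRNA gene Gm24808. The part of reads from Pou2f1 or from these genes in the Cd247 values was not tested.

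**Figure D2:**
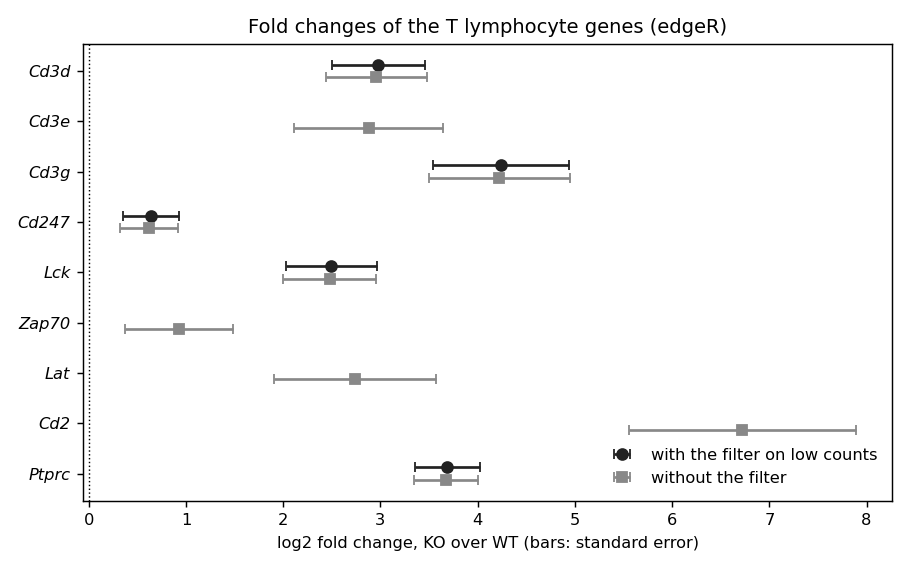
Log2 fold change of KO over WT (x axis) for each gene, with bars for the standard error, from edgeR with the filter on low counts (black circles, 5 genes) and without it (grey squares, 9 genes). All points lie to the right of 0, those of Cd247 and Zap70 below 1, and the point of Cd2 is a fitted value against libraries at 0 counts.

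The kinases and the adaptor follow. Lck (gene 16818, chromosome 4, 129548344 to 129573641) had 35, 15 and 30 counts in KO against 5, 7 and 3 in WT. The lowest KO library held more counts than the highest WT library. KO exceeded WT by 2.50 on the log2 scale (SE 0.466; edgeR, adjusted p = 1.81e-03). Zap70 (gene 22637, chromosome 1, 36761798 to 36782821) had 8, 6 and 15 counts in KO against 3, 5 and 8 in WT. These ranges overlapped. The log2 fold change of 0.93 (SE 0.560) without the filter did not pass the test (adjusted p = 0.207, edgeR). From 29 against 16 counts in all, the ratio was 1.96 with a counting interval of 1.03 to 3.85, which leaves out the spread between libraries.

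Lat (gene 16797, chromosome 7, 126363827 to 126369588) had 19, 5 and 22 counts in KO against 0, 3 and 4 in WT. KO replicate 2 was only 1 count above the highest WT library. Without the filter KO exceeded WT by 2.74 on the log2 scale (SE 0.831; edgeR, adjusted p = 0.0239). This call was lost without WT replicate 1 (adjusted p = 0.0549), without KO replicate 1 (0.0893) and without KO replicate 3 (0.0974, edgeR).

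Cd2 (gene 12481, chromosome 3, 101275908 to 101287939) was at 0 in all 3 WT libraries and had 10, 7 and 21 counts in KO. Against the floor of 3 counts per library this was at least 4.54-fold higher in KO, with an adjusted p of 3.35e-03 without the filter (edgeR). A count of 0 allows up to 0.142 CPM in the WT library with the highest limit. Intervals and floors here cover counting error only.

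Ptprc (gene 19264, chromosome 1, 138062859 to 138175756) had 105, 87 and 123 counts in KO against 13, 5 and 8 in WT. In CPM this was 5.27 ± 0.883 in KO and 0.402 ± 0.183 in WT, and Ptprc supplied 43.1% of the members' counts in KO. KO exceeded WT by 3.69 on the log2 scale (SE 0.332; edgeR, adjusted p = 3.63e-05). Since CD45 is shared by all leukocytes, the sum was also taken without it, and the other 8 genes reached 6.95 ± 2.03 CPM in KO and 1.78 ± 0.339 CPM in WT, a ratio of 3.90.

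**Figure D3:**
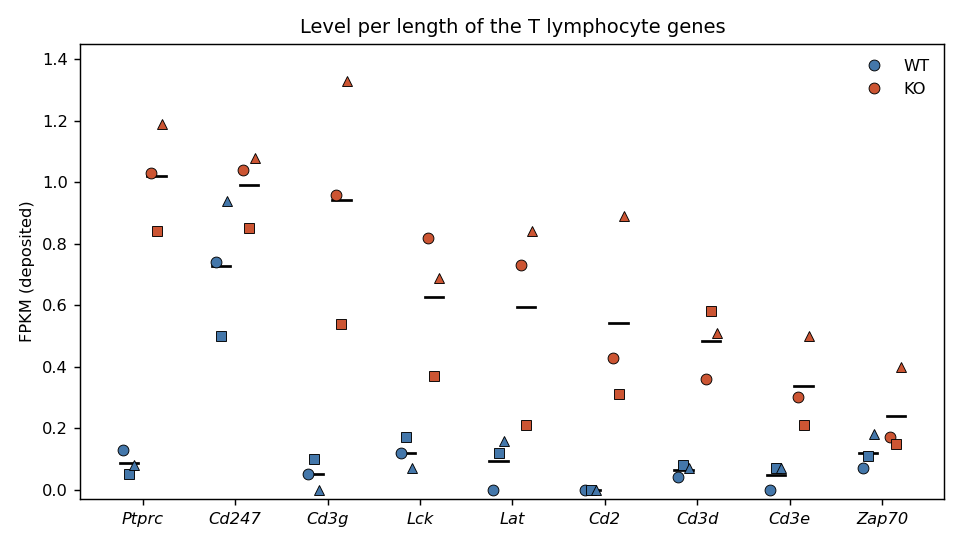
Deposited FPKM (y axis), the level per length of transcript, of each gene in the 3 WT and 3 KO libraries, with a black line for the group mean and genes ordered by the mean in KO. The KO means run from 1.02 for Ptprc to 0.240 for Zap70, and in WT Cd247 stands above the other 8 genes.

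The order of the members by level was taken per length, as FPKM, since shares of counts also depend on transcript length. In KO the order was Ptprc (1.02 ± 0.175 FPKM), Cd247 (0.990 ± 0.123), Cd3g (0.943 ± 0.395), Lck (0.627 ± 0.232), Lat (0.593 ± 0.337), Cd2 (0.543 ± 0.306), Cd3d (0.483 ± 0.112), Cd3e (0.337 ± 0.148) and Zap70 (0.240 ± 0.139). Each gene's range over the KO libraries overlapped that of the next, so no neighbours in this order differed beyond their spread. In WT the order was led by Cd247 (0.727 ± 0.220 FPKM), whose range did not overlap that of the next, Lck (0.120 ± 0.05). The other 8 genes had WT means between 0 and 0.120 FPKM, and the ranges of neighbours overlapped. In KO between 26.7% and 37.6% of all genes had a lower mean FPKM than the members.

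The KO libraries differed among themselves. KO replicate 2 was the lowest of the 3 for 8 of the 9 members, and KO replicate 3 was the highest for 6. Cd3d went against this and was highest in KO replicate 2. Among 75 other T cell genes with a single lowest KO library, KO replicate 2 was lowest for 48 (64.0%), while over all genes each KO library was lowest for 29.3% to 36.3%. In the macrophage, monocyte and neutrophil list it was instead KO replicate 1 that was lowest, for 11 of 14 genes. KO replicate 2 had 20158404 counts in total against 20744913 and 20880347 in the other KO libraries, and CPM is scaled for this. Without KO replicate 2 the ratio of summed levels was 6.30, and without KO replicate 3 it was 4.97.

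Other genes of T cells were taken from 5 lists covering surface receptors, signalling, transcription factors, effectors and homing. Of 85 symbols 77 were in the table, and the others, among them the constant regions of the receptor chains (Trac, Trbc1, Trbc2 and Trdc), were not analysed here. After the filter 42 were tested, of which 25 were higher, 11 lower and 6 not called (edgeR). Without the filter 45 of 77 were higher and 11 lower, against 25.9% and 23.0% of all genes. Counts of called genes per list below are from this fit unless stated, and these shares stand beside them. In these lists the calls differed by the level in WT. Of the 57 genes with a mean of less than 50 counts in WT, 40 were higher (31 by DESeq2) and 0 lower. A gene near 0 in WT has little room to fall. Of the 20 genes with a higher mean, 5 were higher and 11 lower. Over all genes 27.5% were higher below a mean of 50 and 34.5% lower at or above it. The share lower below that mean and the share higher at or above it were not taken. The 0 of 57 and the 5 of 20 therefore cannot be set against all genes. Bulk RNA does not show from which cells these transcripts came.

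**Figure D4:**
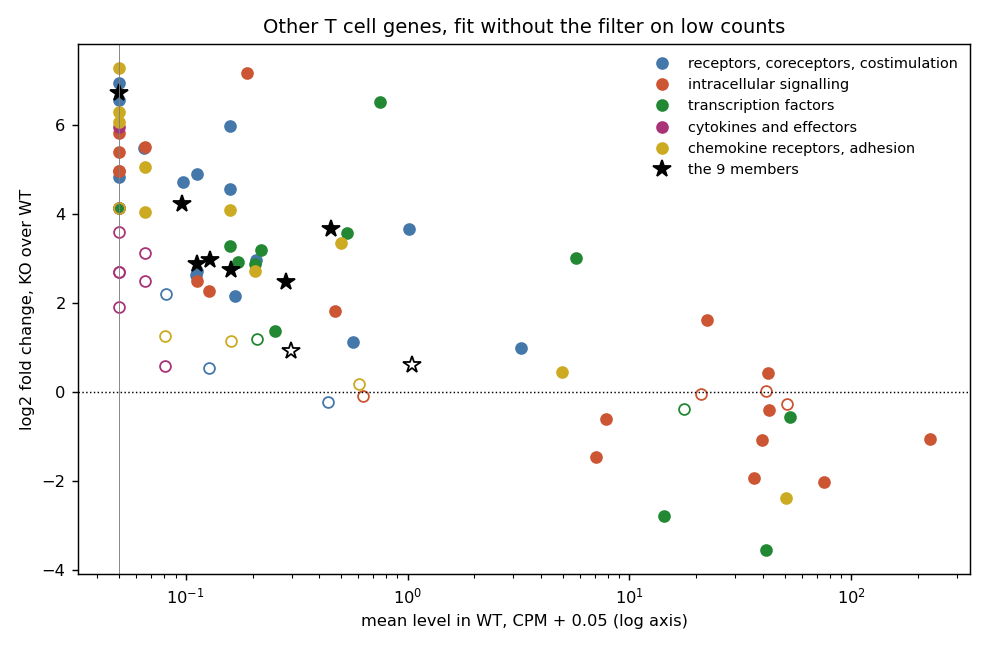
Log2 fold change of KO over WT (y axis, edgeR without the filter) against the mean WT level (x axis, log scale, CPM + 0.05) for 77 other T cell genes in 5 lists and the 9 members (stars). Filled symbols passed the adjusted p of 0.05 and open symbols did not, the open stars being Cd247 and Zap70, and symbols on the vertical line were at 0 in every WT library.

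Of the 18 surface genes measured, 15 were higher and 0 lower without the filter, against 25.9% and 23.0% of all genes. DESeq2 called 12 of them higher. Only 1 of the 18 had a WT mean of at least 50 counts, so most had little room to fall. The 18 genes summed to 30.3 to 44.1 CPM in KO against 4.96 to 6.48 CPM in WT. Cd5, Thy1 and Il2ra held most of the KO sum (means of 12.4, 7.27 and 6.38 CPM). Il2ra was the largest part of the WT sum (mean of 3.18 CPM). Cd4, the coreceptor of helper T cells, had 39, 6 and 39 counts in KO against 0, 1 and 2 in WT (adjusted p = 3.52e-03, edgeR without the filter). From 84 against 3 counts the ratio was 30.2, with a counting interval of 9.99 to 149. As for most members, KO replicate 2 was the low library. Cd8a, a coreceptor chain of cytotoxic T cells, had 20.98, 19.9 and 27.0 counts in KO against 15, 9.42 and 9.02 in WT (log2 fold change 1.14, adjusted p = 0.0152, edgeR). Its partner Cd8b1 had 20.1, 4.93 and 9.98 counts in KO against 2.65, 1.57 and 3.25 in WT (log2 fold change 2.17, adjusted p = 0.0225, edgeR without the filter). Ctla4, an inhibitory receptor, was at 0 in WT and had 12, 11 and 21 counts in KO. The shared cytokine receptor chains Il2rb and Il2rg were also higher, with log2 fold changes of 4.92 and 4.58 (edgeR). Thy1 had 191, 84 and 159 counts in KO against 2, 5 and 0 in WT, and Cd5 had 259, 241 and 239 against 20, 16 and 26. Both passed the test (adjusted p = 6.34e-05 and 2.78e-06, edgeR).

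Of the 22 signalling genes 11 were higher and 7 lower without the filter, with a median log2 fold change of 0.23. Over all genes the shares in that fit were 25.9% higher and 23.0% lower. Among partners of the members that were low in WT and higher in KO was the adaptor Lcp2 (0, 0 and 1 counts in WT, 14, 16.1 and 29 in KO). The 7 lower genes were Grap2, Malt1, Ptpn22, Ptpn6, Csk, Nfatc1 and Nfatc2. Each had a WT mean of at least 50 counts. The summed level of the signalling list was lower in KO, at 413 to 501 CPM against 599 to 624 CPM in WT. They include Csk and Ptpn22, known as brakes on Lck and its relatives, and Csk had 2594, 1804 and 2243 counts in KO against 4705, 5005 and 4848 in WT (log2 fold change -1.02, adjusted p = 2.86e-04, edgeR). Fyn, a kinase related to Lck, had 3 counts in each WT library and 574, 282 and 417 in KO.

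Among 14 transcription factors 9 were higher and 3 lower without the filter, against 25.9% and 23.0% of all genes. They summed to 156 to 209 CPM in KO against 121 to 145 CPM in WT. Foxp3, which defines regulatory T cells, had 18.8, 11.2 and 22.0 counts in KO against 2.22, 2.26 and 3.38 in WT (log2 fold change 2.93, adjusted p = 8.44e-04, edgeR). Tcf7, Bcl11b, Runx3, Ikzf1 and Maf were higher, and Satb1, Ikzf3 and Sox13 were lower. Of the 9 effector genes in the table only Gzmb, which encodes granzyme B, passed the test, with 0 in WT and 7, 6 and 9 counts in KO (adjusted p = 3.52e-03, edgeR without the filter). Ifng had 1 count in all 6 libraries together and Il17a had 6, of which 5 were in KO replicate 2. The effector genes summed to 0.847 to 1.05 CPM in KO against 0.0465 to 0.0918 CPM in WT. Of 14 homing genes 9 were higher and 1, Itgb7, was lower without the filter. The sum was lower in KO, at 24.4 to 33.5 CPM against 40.0 to 71.0 CPM in WT. Itgb7 held most of the WT sum, at 33.5 to 64.6 CPM, and had 7.97 to 11.1 CPM in KO. Itgae, the integrin chain that holds T cells in epithelia, had 36, 21 and 61 counts in KO against 2, 1 and 4 in WT (log2 fold change 4.11, adjusted p = 4.51e-04, edgeR).

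Markers of other cells also differed between the groups, but not all in the direction of the members. Of the 14 macrophage, monocyte and neutrophil genes 11 were higher and 2 lower without the filter, against 25.9% and 23.0% of all genes. Yet their summed level did not separate the groups (275 to 354 CPM in WT, 228 to 315 CPM in KO). Itgam, which was lower, held most of it. Of the 8 Langerhans and dendritic cell genes 7 were higher, with sums of 8.94 to 19.7 CPM in WT and 100 to 185 CPM in KO. Cd207, the defining marker of Langerhans cells, had 13, 16 and 26 counts in KO against 0, 1 and 2 in WT. Of the 15 general leukocyte genes 13 were higher with the filter and 12 without it, with sums of 47.7 to 146 CPM in WT and 127 to 235 CPM in KO, of which Arhgdib, which was not called, held most. Stromal and vessel genes were higher in 7 of 7 without the filter, with sums of 0.733 to 2.88 CPM in WT and 14.3 to 24.1 CPM in KO. Epithelial genes fell in 5 of 8 and rose in 1, Krt14, with sums of 66020 to 71210 CPM in WT and 28650 to 32770 CPM in KO. The part of these cells in the member values was not tested.

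Natural killer and B cell genes were read apart because those cells share some of the members. Of 7 natural killer genes measured, 4 were higher without the filter (Klrk1, Klrd1, Nkg7 and Cd160), or 3 by DESeq2. None was lower, with little room to fall from the WT counts. The sums were 0.0458 to 0.233 CPM in WT and 1.56 to 2.03 CPM in KO. The defining marker Ncr1 had 4, 0 and 3 counts in KO against 0, 1 and 0 in WT. Cd2, Lck, Zap70, Lat, Cd247 and Ptprc are known from natural killer cells too. Of 7 B cell genes 0 passed the test in either direction (edgeR without the filter, and 0 by DESeq2, with 1 at an unadjusted p under 0.05), with sums of 1.2 to 1.67 CPM in WT and 1.46 to 2.02 CPM in KO. Ms4a1, the gene of the B cell marker CD20, had 1 count in all 6 libraries together. Of 6 mast cell genes 1 was higher and 1, Cpa3, lower without the filter. Over all genes the shares in that fit were 25.9% higher and 23.0% lower.

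**Figure D5:**
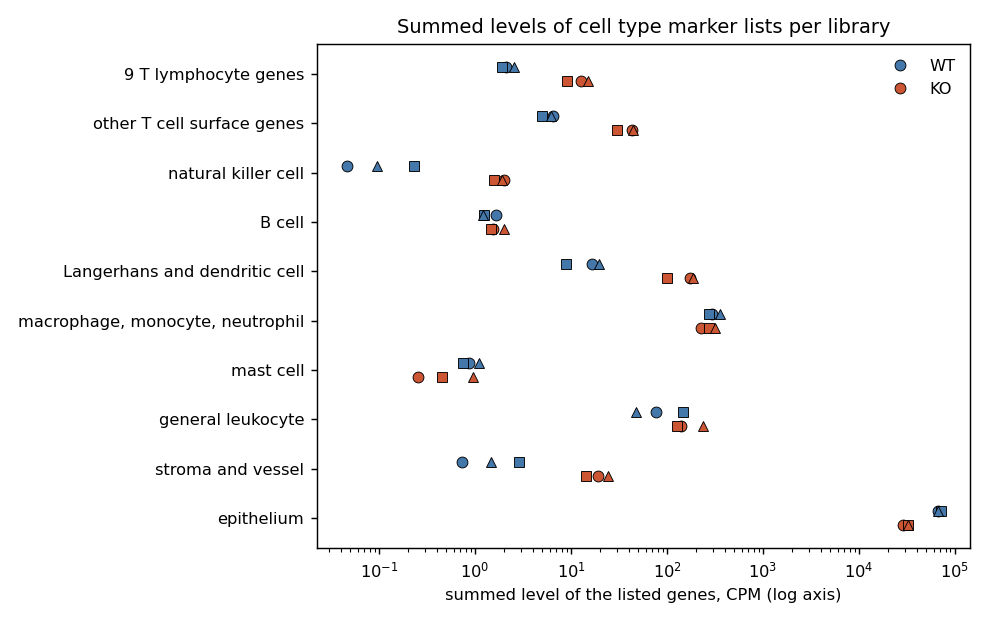
Summed level (x axis, log scale, CPM) of 10 of the gene lists in the 3 WT (blue) and 3 KO (orange) libraries, with the marker shape giving the replicate number. The groups are apart for the T lymphocyte, T cell surface, natural killer, Langerhans and dendritic, stromal and epithelial lists and overlap for the B cell, macrophage, mast cell and general leukocyte lists.

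Outside all lists, the genes most like the members over the 6 libraries were found among 13207 tested genes. Likeness was the root mean square difference between centred log2(CPM + 0.5) of a gene and of the members' sum. The 5 nearest were Arhgap30 (0.0476), Smtnl2 (0.0710), Gclm (0.0896), Wasf1 (0.109) and Il10ra (0.119), and 79 genes lay within 0.25. Arhgap30 had 99.2, 72.0 and 114 counts in KO against 13.04, 11.9 and 15.1 in WT. Il10ra, the interleukin 10 receptor chain, had 57, 36 and 57 counts in KO against 4, 1 and 3 in WT. With 6 libraries from 2 groups that differ in many genes, such likeness is a description.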

How the data were processed

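Total RNA of the separated epithelial layer was depleted of ribosomal RNA and sequenced as short single-end reads on a BGI instrument, per the study's methods, while the labels name an Illumina kit. The authors cleaned the reads (SOAPnuke), mapped them (Bowtie2 2.2.5) and deposited estimated counts of RSEM 1.2.12, FPKM and TPM per gene. Coordinates in the table are those of GRCm38, whereas the submitters' processing notes name mm9. The deposited fold changes and p-values of the authors' own comparison were not used. The deposited FPKM values were used for levels per length and as an alternative scale, and the deposited TPM values only to check that they sum to 1000000.

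The main test was edgeR 4.0.16 on rounded estimated counts (R 4.3.3; TMM, filterByExpr, glmQLFit, glmQLFTest, with genotype alone in the model). Adjusted p-values are Benjamini-Hochberg over 13305 genes, or over 17827 genes with at least 1 count where the filter was left out. Standard errors are the absolute log2 fold change over the square root of F. CPM values were scaled by TMM factors (1.01 to 1.05 in WT, 0.952 to 0.990 in KO). The 95% counting intervals are exact binomial intervals of summed counts (scipy 1.17.1). The members, lists and tests were chosen with earlier results of these data known. Named were the 9 members, called genes of the lists, at most 4 abundant uncalled genes per list with defining markers, and the 5 genes most alike. Ifng and Pou2f1 were named after their values were seen. The libraries were independent biological samples per the methods. The edgeR test with the filter was tried on simulated counts with a fixed dispersion. The fits without the filter, DESeq2 and limma were not tried in this way. Alternatives were total counts only, RLE factors, DESeq2 1.42.0, TMM leaving out the 20 highest genes, no filter, a mean count of at least 50, a replicate block, limma 3.58.1 on log2(FPKM + 1) and log2(FPKM + 0.1), and leaving out each library. The values of some listed genes are not reported here.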

Additional observations from a re-analysis of the deposited data

How the results depend on the processing

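The number of members called higher was 4 under DESeq2, total counts only, RLE factors, TMM leaving out the 20 highest genes and both limma scales. It was 7 with no filter on low counts and 1 (Ptprc) at a mean count of at least 50, because fewer genes are then tested, and 4 to 6 when each library was left out. Without the filter it was 5 to 7 over the left-out libraries. No member was called lower in any fit, and their low WT counts left little room for it. For other T cell genes called higher the count of 25 became 45 with no filter and 11 at a mean of at least 50, and it was 24 to 29 over the left-out libraries (34 to 40 without the filter), while 10 to 11 were called lower. DESeq2 without the filter called 35 of the other T cell genes higher. Over all genes 3870 to 4254 were higher and 3412 to 3936 lower when each library was left out, and total counts only gave 3706 higher and 4632 lower. The ratio of summed member levels, 5.60, was 3.90 in the sum without Ptprc, 9.01 in the sum without Cd247, a choice made after seeing the data, and 4.97 to 6.30 over the left-out libraries. The fits without the filter were repeated under the alternatives, also after seeing the data.

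Of 170 member values under these alternatives 166 kept their direction and their side of the threshold. The other 4 were Cd3e without KO replicate 3 and Lat without WT replicate 1, KO replicate 1 or KO replicate 3, in fits without the filter. Cd247 was not called in any (adjusted p of 0.0619 to 0.316, edgeR, DESeq2 or limma). On log2(FPKM + 1), a scale that understates low genes, the log2 fold changes of Cd3d, Cd3g, Lck and Ptprc were 0.48, 0.87, 0.53 and 0.89. The titles count replicates from 1 to 3 in both groups, and whether the numbers pair the samples is not stated. Correlations of deviations were 0.034, -0.010 and 0.061 for the same number and -0.159 to 0.123 for different numbers. With so few libraries these cannot show whether the samples were paired. With the replicate block 4 members were called higher, 7 without the filter, and 24 other T cell genes, or 35 without the filter. Counting error limits what can be read of members at or under the floor of 3 counts.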
